A study of Mus musculus with 55 samples.

Results

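The interleukin-1 (IL-1) family genes described here are 8 genes, listed by name, with earlier results of these data known. They are the cytokine genes Il1a, Il1b, Il18 and Il33, the receptor antagonist gene Il1rn, and the receptor genes Il1r1, Il1r2 and Il1rl1. All 8 were found among the 47606 gene rows of each of 2 expression tables, and all 8 passed the filter on low values in both (10 or more normalized counts in no fewer than 4 B6 or 5 NSG libraries). The study grew BBN963, a mouse bladder cancer line that comes from a tumour made with the carcinogen BBN, in C57BL/6 mice (B6 here) and in NSG mice, and measured RNA in whole tumours. The B6 set had 4 baseline, 6 vehicle and 5 entinostat tumours, and the NSG set had 5 of each. Entinostat inhibits class I histone deacetylases.

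Every group carried this 1 line, and the labels name no other allele or agent, so all groups share it and rest on 1 tumour of origin. For B6 mice, 3 M cells were placed under the skin, randomization followed once tumours reached 200 mm3, entinostat was given in chow at 12 mg/kg and entinostat tumours were taken at 100 mm3. Vehicle tumours carry the treatment label vehicle, while their titles call them non-treated. The volume at which B6 vehicle and baseline tumours were taken, and the dose and volumes for NSG mice, are not given in the sources used here, nor are the age and sex of the mice or the time at which baseline tumours were taken. In B6 tumours treatment and tumour volume therefore cannot be told apart. NSG mice carry the scid mutation of Prkdc and lack Il2rg, so they have no mature T, B or NK cells and keep myeloid cells. A sixth B6 entinostat tumour, with number 403, was not analysed here. B6 tumours are named by number and NSG tumours by the stem of their titles, such as NSG_Entinostat_319.

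IL-1 alpha and IL-1 beta bind the receptor encoded by Il1r1, which signals with the accessory protein Il1rap through Myd88 and the IRAK kinases to NF-kB. Il1rn encodes an antagonist that occupies the same receptor without signalling, and Il1r2 encodes a decoy receptor that binds IL-1 without signalling. IL-33, stored in nuclei of epithelial and stromal cells, is an alarmin read by ST2, the product of Il1rl1, on mast cells, type 2 lymphoid cells and some regulatory T cells. IL-18 is made as a precursor, as IL-1 beta is, and both are cut by caspase-1 in inflammasomes. Transcript levels say nothing about that cutting or about release.

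The genes lie in 5 places in the mouse genome (build GRCm38, the mm10 build). Il1a spans chromosome 2, 129299609 to 129310186, and Il1b lies beside it at 129364569 to 129371164. Il1rn lies far from both on the same chromosome, at 24336860 to 24351491, next to the genes of the IL-36 cytokines. The receptor genes Il1r2 (40084692 to 40125230), Il1r1 (40222480 to 40316201) and Il1rl1 (40404864 to 40465418) share a cluster of 467 kb on chromosome 1 with Il1rl2, Il18r1 and Il18rap. Il18 is on chromosome 9, 50554700 to 50581841, and Il33 on chromosome 19, 29925113 to 29960718.

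The 5 members that changed under entinostat in B6 tumours have 1 promoter window each printed here, to show the sequence at a listed start site. Gene-level counts do not show which start site was used. Each window is the RefSeq sequence of build GRCm38.p6 from 250 bases before to 50 bases from a start site on, in the gene's own direction, at the most upstream start site with a window in the table of promoters. For Il1a, Il1r1 and Il1rl1 that start site lies inside the gene span given above. Capitals mark matches on either strand to 5 motifs: AP-1 (TGANTCA), C/EBP (TTGCNNAA), PU.1 (GAGGAA), the TATA box (TATAAA) and NF-kB. The windows are chr2:129309923-129310222 on the minus strand for Il1a, chr2:24336610-24336909 on the plus strand for Il1rn, chr1:40224830-40225129 on the plus strand for Il1r1, chr1:40429320-40429619 on the plus strand for Il1rl1 and chr19:29924863-29925162 on the plus strand for Il33.
Il1a: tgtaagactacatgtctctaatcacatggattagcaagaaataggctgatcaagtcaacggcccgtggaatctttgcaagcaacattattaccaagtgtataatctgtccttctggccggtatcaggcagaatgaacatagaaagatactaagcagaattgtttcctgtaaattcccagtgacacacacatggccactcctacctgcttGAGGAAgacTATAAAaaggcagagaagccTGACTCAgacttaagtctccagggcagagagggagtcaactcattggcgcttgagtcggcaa
Il1rn: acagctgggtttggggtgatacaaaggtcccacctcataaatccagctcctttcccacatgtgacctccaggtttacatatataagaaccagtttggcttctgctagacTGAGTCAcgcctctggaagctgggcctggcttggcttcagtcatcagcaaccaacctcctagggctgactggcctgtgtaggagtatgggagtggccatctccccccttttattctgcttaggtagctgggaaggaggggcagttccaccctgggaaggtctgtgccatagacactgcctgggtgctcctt
Il1r1: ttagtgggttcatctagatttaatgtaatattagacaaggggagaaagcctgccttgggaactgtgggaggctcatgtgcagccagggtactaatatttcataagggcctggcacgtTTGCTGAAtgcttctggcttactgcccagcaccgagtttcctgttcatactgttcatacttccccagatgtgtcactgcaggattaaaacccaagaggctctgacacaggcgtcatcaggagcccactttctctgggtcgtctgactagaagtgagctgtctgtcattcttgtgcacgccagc
Il1rl1: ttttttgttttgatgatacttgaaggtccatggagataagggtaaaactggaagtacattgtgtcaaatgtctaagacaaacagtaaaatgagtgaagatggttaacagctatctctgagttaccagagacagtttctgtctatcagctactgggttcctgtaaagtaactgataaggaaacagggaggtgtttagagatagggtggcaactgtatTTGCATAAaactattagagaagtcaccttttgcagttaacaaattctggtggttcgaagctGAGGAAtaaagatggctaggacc
Il33: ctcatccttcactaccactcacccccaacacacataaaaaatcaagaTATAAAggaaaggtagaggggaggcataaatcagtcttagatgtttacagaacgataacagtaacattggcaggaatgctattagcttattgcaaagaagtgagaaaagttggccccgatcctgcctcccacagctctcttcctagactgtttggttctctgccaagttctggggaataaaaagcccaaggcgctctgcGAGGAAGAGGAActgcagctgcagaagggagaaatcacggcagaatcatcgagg

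Il1a holds a TATA box at bases -32 to -27 from its start site, with an AP-1 match at -12 to -6 and a PU.1 match at -41 to -36. Il1rn holds an AP-1 match at -141 to -135. Il1r1 and Il1rl1 each hold a C/EBP match, at -133 to -126 and -34 to -27, and Il1rl1 also a PU.1 match from base 27 to 32. Il33 holds a pair of adjoining PU.1 matches at its start site and a TATA match at -203 to -198. The 4 genes that rose therefore share no one of these motifs in the windows printed. Of 32817 windows of the same length in the table, 8.46% held an NF-kB match, 7.81% an AP-1 match, 10.8% a C/EBP match, 28.3% a PU.1 match and 13.6% a TATA match. All 8 members had windows, 13 in all. The second Il33 window, not printed, held a TATA match at -29 to -24 and a C/EBP match at -85 to -78. The second Il1r1 window held the only NF-kB match among the 13, and the windows of Il1r2 and the second ones of Il1rn and Il1rl1 held none of the 5 motifs. A match is a description of letters, and no match says only that the letters are not in these 300 bases.

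Values are normalized gene counts as deposited, with 1 table per host, so a level in B6 tumours is not comparable with one in NSG tumours. Gene lengths were not divided out, so levels are not compared between genes. Libraries held about 11 to 51.9 M reads, estimated from the smallest values of each library. Whole reads could not be recovered from the values, so these depths are rough. Some libraries stood apart. B6 vehicle tumours 408 and 414 were the closest pair of libraries in the series (SD of log2 ratios across genes 0.286, against 0.667 for the next B6 pair). They differed by more than the sampling noise computed from the same rough estimate. Results are also given with both counted as 1 sample. B6 vehicle tumour 402 lay nearest the entinostat tumours on the first principal component, and NSG_Entinostat_319, the shallowest library by that estimate, stood apart from its group. Replicates are separate tumours, so p-values measure the spread among tumours.

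The tissue itself differed between the B6 groups, and these values stand beside every B6 result here. All 10 markers of basal and squamous tumour epithelium fell in B6 entinostat tumours, and their summed level was 185936 to 790637 normalized counts in vehicle and 1251 to 2576 in entinostat tumours. The basal keratin Krt5 itself averaged 107730 normalized counts in vehicle and 171 in entinostat tumours. All 12 macrophage and monocyte markers rose (summed level 5965 to 52677 and 177523 to 263344), as did all 10 fibroblast markers (2303 to 299323 and 718108 to 987624). Of the 8 mast cell markers tested 5 rose (364 to 1909.9 and 1198 to 5665), and of the 11 neutrophil markers tested 6 rose and 1, Ltf, fell (8489.8 to 75759 and 14945 to 32821). Of the 7 urothelial markers tested 5 fell and 1 rose in B6 entinostat tumours (summed level of the list 2429 to 7131 in vehicle and 332 to 1095 in entinostat), and in NSG groups the list summed to 4824 to 10414. Upk2, which marks umbrella cells of the bladder lining, was at 18.4 to 89.9 in B6 vehicle and 0 to 19.1 in B6 entinostat tumours. Of the dendritic cell markers 6 of 7 rose (279.9 to 1864 and 3985 to 20543), and all 8 endothelial markers rose. Of the 6 regulatory T cell markers 4 rose and 1 fell (711 to 1581 and 1179 to 2354). Beside all these counts of markers, 29.9% of all genes tested were called higher and 26.2% lower in B6 entinostat against vehicle tumours. Of the skeletal muscle markers 5 of 6 rose (5.65 to 104 and 84.4 to 396780, the highest in tumour 413), with a median change of 8.36. With sums this low in vehicle tumours there was little room for a fall, so the calls of muscle markers are a description. Of the adipocyte markers 3 of 5 rose (113 to 4735 and 9797 to 27596). In whole tumours, fewer cells of a type and less RNA per cell cannot be told apart, and the part of these cell types in the changes of the 8 members was not tested.

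**Figure D1:**
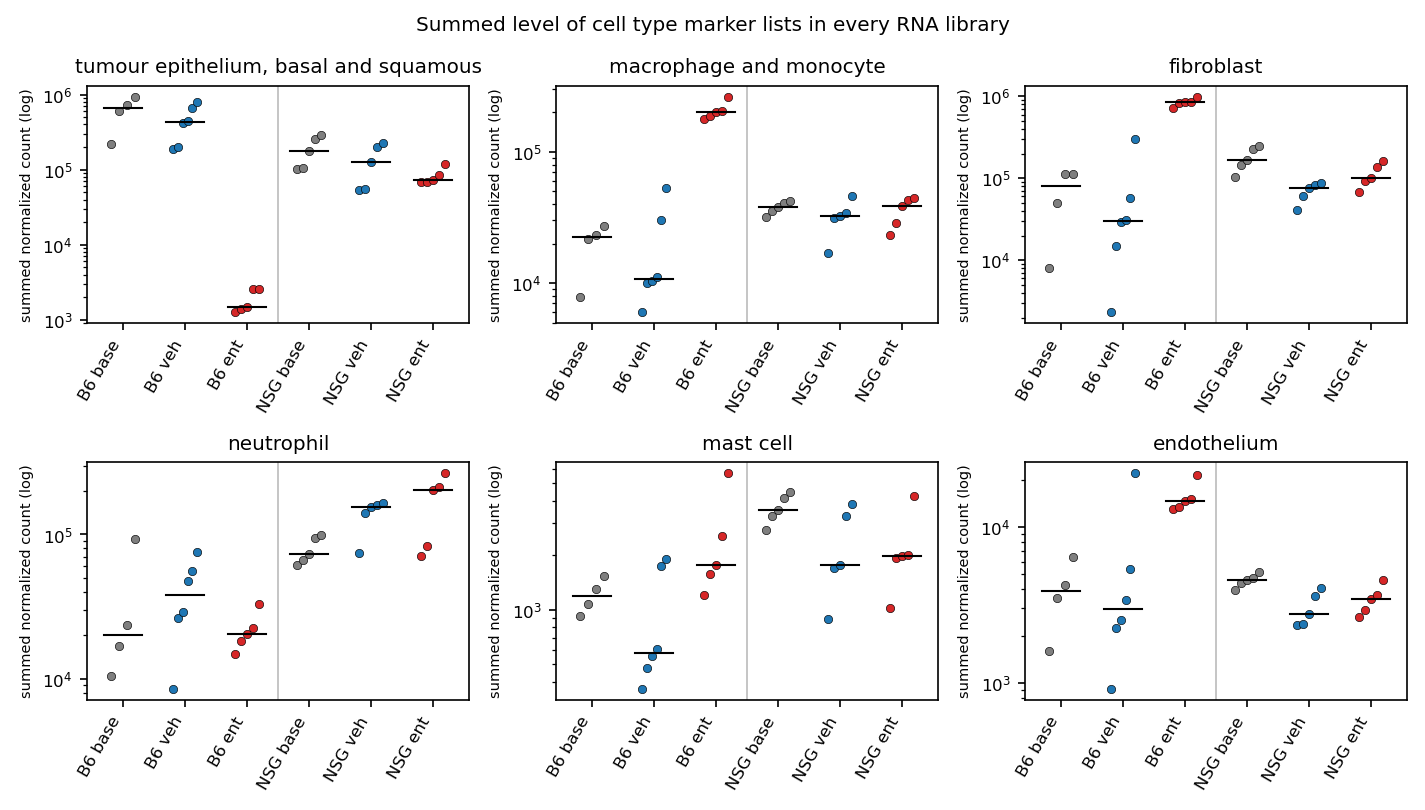
Summed normalized counts (log axis) of 6 cell type marker lists in each RNA library (points) of the 3 B6 and 3 NSG groups, with the median as a line. The 5 B6 entinostat tumours lie below all other B6 tumours for tumour epithelium and above them for macrophages and fibroblasts, while the NSG groups overlap between vehicle and entinostat.

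The first comparison asked what entinostat did to the IL-1 family in tumours of B6 mice. Of the 8 members, 4 rose and 1 fell against vehicle. The agonist gene Il1a, the antagonist gene Il1rn and the signalling receptor gene Il1r1 rose, and so did the IL-33 receptor gene Il1rl1, while Il33, the gene for its ligand, fell. Changes are differences of log2(normalized count + 1), tested with limma, and adjusted p-values are Benjamini-Hochberg adjusted over all genes tested. In this comparison 56.0% of 17053 genes were called (adjusted p under 0.05), 29.9% higher and 26.2% lower, so 5 of 8 is near the background share. The median change of the members was 1.64, beside -0.01 over all genes. Counting vehicle 408 and 414 as 1 sample left 4 members called, without Il33.

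**Figure D2:**
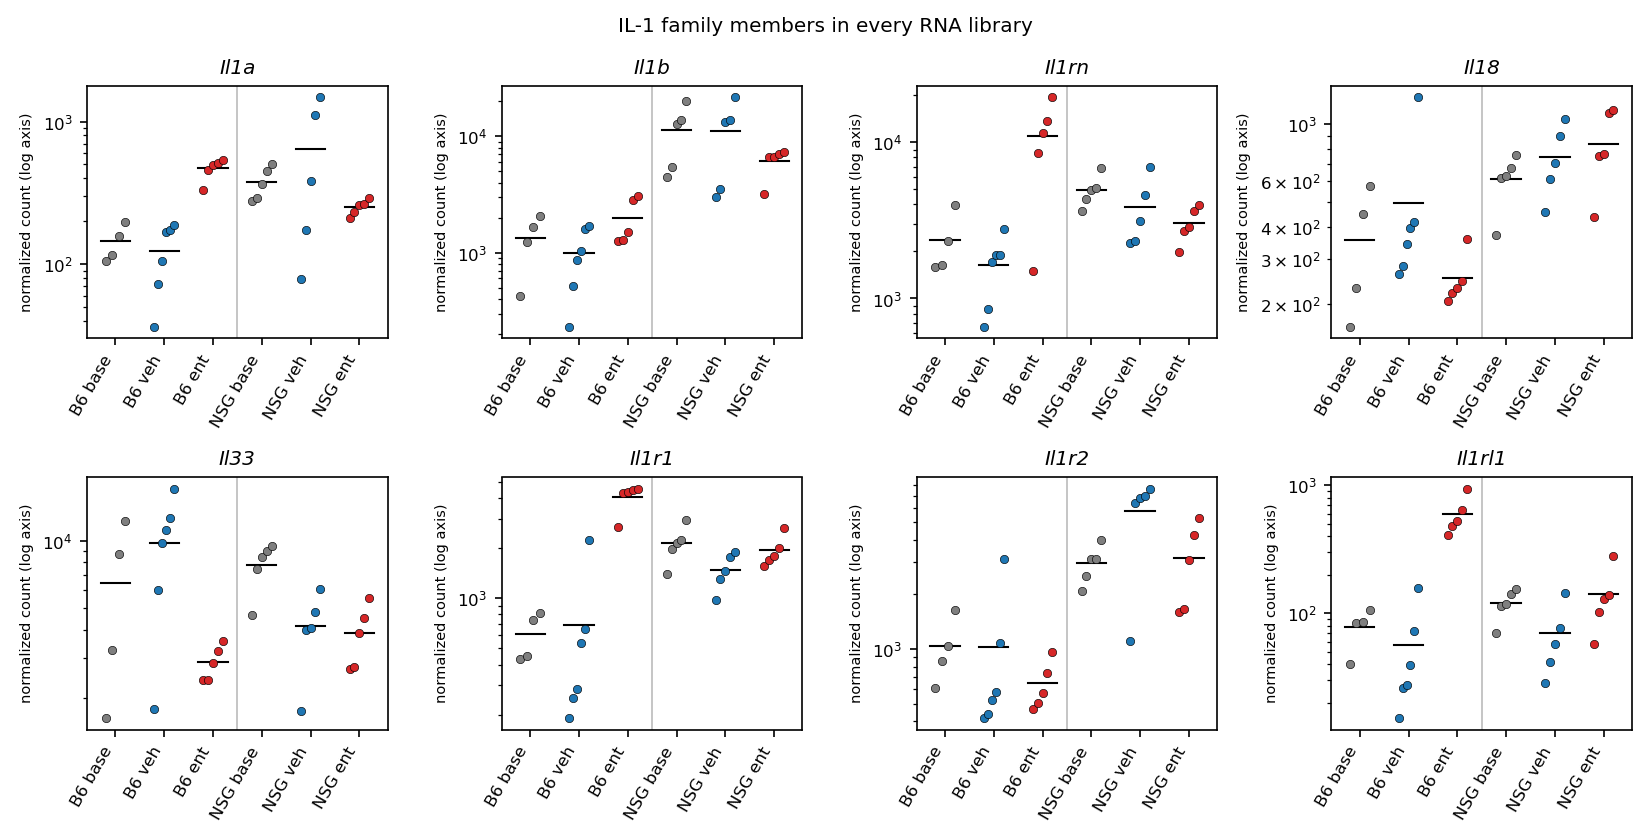
Normalized counts (log axis) of the 8 IL-1 family genes in each RNA library (points) of the 3 B6 and 3 NSG groups, with the group mean as a line. In B6 tumours the 5 entinostat libraries lie above all vehicle and baseline libraries for Il1a, Il1r1 and Il1rl1; B6 and NSG values come from tables normalized separately.

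Among the ligands, Il1a was measured at 332, 460.4, 496, 516 and 540.3 normalized counts in the 5 B6 entinostat tumours. The 6 vehicle tumours ran from 36.2 through a median of 136 to 187, and the 4 baseline tumours were at 104, 117, 158 and 198. Every entinostat tumour was above every vehicle and baseline tumour. The log2 difference from vehicle was 2.10 (SE 0.38, adjusted p = 0.000285), from means of 124 ± 61.8 (SD, n = 6) and 469 ± 81.7 (SD, n = 5). Il1a encodes the IL-1 form that is active without cutting and that many dying cells release.

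Il1b, whose product is the main secreted IL-1 of myeloid cells, did not pass the test. Its values were 1253, 1294, 1497, 2864 and 3084 in the entinostat tumours and 231 to 1684 (median 945) in the vehicle tumours. The highest vehicle tumours, 402 and 410, lay above 3 of the 5 entinostat tumours. The difference was 1.18 (SE 0.51, adjusted p = 0.0618), with a 95% interval of 0.089 to 2.28. It passed without vehicle 402 (1.38, adjusted p = 0.0351) or without vehicle 410 (1.39, adjusted p = 0.0344), and without 402 and with 408 and 414 counted as 1 sample (1.48, adjusted p = 0.0408), within a range of adjusted p = 0.0344 to 0.141 over all alternatives.

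Il1rn had the largest ratio of highest to lowest entinostat tumour among the members. The 5 tumours held 1509, 8609, 11535, 13798 and 19389 normalized counts, and the vehicle tumours 659 to 2792 (median 1803). Entinostat tumour 418, at 1509, lay inside the vehicle range and the other 4 entinostat tumours lay above it. The summed dendritic cell markers were also lowest in tumour 418 (3985) and highest in tumour 423 (20543), the tumour with the most Il1rn. That list holds Itgax, which is among the genes most like Il1rn given below. The fibroblast and mast cell sums ran the other way, highest in tumour 418 (987624 and 5665) and lowest in tumour 423 (718108 and 1198). The macrophage sum was also lowest in tumour 423 (177523). The part of these cell types was not tested. The difference of Il1rn from vehicle was 2.51 (SE 0.56, adjusted p = 0.00149), and 3.13 (adjusted p = 2.38e-05, in a range of adjusted p = 2.38e-05 to 0.00531 over all alternatives) without tumour 418. The gene makes secreted and intracellular forms from different first exons, and the gene-level table does not separate them.

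Il33 was the member that fell, and of the 5 calls it was the one that alternatives ended. Entinostat tumours held 2396, 2398, 2845, 3239 and 3563 normalized counts. Vehicle tumours ran from 1791 through 10446 to 16935, and baseline tumours were at 1625, 3279.7, 8721 and 12235. Of the 6 vehicle tumours 5 lay above all entinostat tumours, and vehicle 424, at 1791, lay below them. The difference was -1.48 (SE 0.55, adjusted p = 0.0332), and it no longer passed with 408 and 414 counted as 1 sample (-1.36, adjusted p = 0.0655), with 402 left out as well (adjusted p = 0.0739), with cyclic loess scaling (adjusted p = 0.0525), or without any 1 of 7 libraries (vehicle 405, 408, 410 and 414, entinostat 411, 413 and 418), in a range of adjusted p = 0.00274 to 0.0739. Without vehicle 424 it was -1.91 (adjusted p = 0.00274).

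Il18 did not pass, at 206 to 357 normalized counts in entinostat and 263 to 1267 in vehicle tumours. The difference was -0.75 (SE 0.40, adjusted p = 0.117), with a 95% interval of -1.60 to 0.089. Its highest value was in vehicle tumour 410.

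Among the receptors, Il1r1 and Il1rl1 separated the groups completely. Il1r1 held 2666, 4282, 4339.6, 4478 and 4513 normalized counts in the entinostat tumours, against 191 to 2234 (median 411) in vehicle and 429.6, 453, 737 and 820.3 in baseline tumours. Vehicle 402 was the high vehicle tumour, at 2234, with the next at 655. The log2 difference from vehicle was 3.08 (SE 0.49, adjusted p = 9.71e-05), and 3.53 without vehicle 402 (adjusted p = 7.8e-07 to 0.000477 over all alternatives). Of the vehicle tumours 402 also had the highest marker sums of fibroblasts (299323 normalized counts, the others up to 57389), macrophages (52677), endothelium (22064), mast cells (1909.9), dendritic cells (1864), T cells (1667) and B cells (167).

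Il1rl1 had the largest difference of the 8 members. Entinostat tumours held 406, 481, 525, 643 and 937 normalized counts, vehicle tumours 15.1 to 159 (median 33.3) and baseline tumours 39.8, 83.7, 84.9 and 106. The log2 difference from vehicle was 3.76 (SE 0.49, adjusted p = 1.96e-05), from means of 56.5 ± 53.8 (SD, n = 6) and 598 ± 208 (SD, n = 5). The gene codes for membrane ST2 and for a soluble decoy form, which this table does not separate. Vehicle 402 was again the high vehicle tumour, and without it the difference was 4.14.

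Il1r2, the decoy receptor gene, did not pass. Its values were 465, 502, 573, 739.8 and 963 in entinostat tumours and 415 to 3117 (median 554) in vehicle tumours. The highest value was in vehicle 424, the tumour with the lowest Il33, Il1a and Il1b of its group. The difference was -0.28 (SE 0.45, adjusted p = 0.621), with a 95% interval of -1.24 to 0.68, and its sign turned without vehicle 424 (0.13). Within a library, the log2 ratio of Il1r1 to Il1r2 ran from -4.02 to 2.43 in vehicle and from -1.01 to -0.49 in baseline tumours, and from 1.85 to 3.26 in entinostat tumours. Only vehicle 402 reached into the entinostat range.

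The groups of 3 members (Il1a, Il1r1 and Il1rl1) did not overlap between entinostat and vehicle, where 35.3% of all genes tested did not. Exact two-sided permutation of the tumour labels gave p = 0.00216 for Il1a, the smallest that 5 against 6 tumours allow, p = 0.00433 for both Il1r1 and Il1rl1, p = 0.0152 for Il1rn, p = 0.0303 for Il33 and p = 0.0455 for Il18. The same exact permutation gave p = 0.0606 for Il1b and p = 0.703 for Il1r2. These p-values are unadjusted, for 8 genes. The changes of Il1r1 (3.08) and Il1rl1 (3.76) stand beside a median of 5.0 over the 10 fibroblast markers, 4.01 over the 12 macrophage markers and 2.24 over the 8 mast cell markers tested.

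Against baseline tumours the same 4 members rose and none fell, where 54.4% of genes were called, 29.1% higher and 25.3% lower. Again 3 members did not overlap, Il1a, Il1r1 and Il1rl1, beside 49.6% of all genes. Il1r1 was at 2.76 (SE 0.54, adjusted p = 0.000626), Il1rl1 at 2.93 (SE 0.55, adjusted p = 0.000447), Il1a at 1.72 (SE 0.42, adjusted p = 0.00299) and Il1rn at 1.91 (SE 0.62, adjusted p = 0.0168). Il33 was at -0.78 (adjusted p = 0.299) and did not pass. This comparison uses the same entinostat tumours as the one against vehicle. By exact permutation Il1rn had an unadjusted p = 0.0635 against baseline, and tumour 418 lay below all 4 baseline tumours. Between vehicle and baseline B6 tumours limma called 0 genes of 17053 (749 at an unadjusted p under 0.05), and 0 members. No member separated these groups, and 0.745% of genes did. The member farthest from 0 there was Il1rl1, at -0.82 with a 95% interval of -1.95 to 0.30.

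The second comparison asked the same in NSG hosts. Entinostat against vehicle gave 0 called members and 0 called genes of 17752 with limma (1287 genes at an unadjusted p under 0.05). Il1rl1 was at 1.04 (adjusted p = 0.682), with 58.0, 103, 130.1, 138 and 279 normalized counts in entinostat and 28.8, 42.0, 58.0, 76.7 and 145 in vehicle tumours. Its 95% interval, 0.13 to 1.95, left out 0 (limma unadjusted p = 0.0279), in the same direction as in B6 tumours. Exact permutation gave it an unadjusted p = 0.111. The groups overlapped for all 8 members, and 0.783% of genes did not overlap. Il1r1 was at 0.41 (adjusted p = 0.696), Il1rn at -0.25 (adjusted p = 0.83) and Il1b at -0.50 (adjusted p = 0.819). The 95% interval of Il1r1, -0.042 to 0.86, ends below the B6 change of 3.08. Leaving out NSG_Entinostat_319, or any other NSG library of the 2 groups, also gave 0 called members.

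Il1a spread widely within the NSG vehicle group. Vehicle tumours held 77.9, 174, 386, 1106 and 1478 normalized counts and entinostat tumours 209.8, 233, 259, 264 and 293, so the whole entinostat group lay inside the vehicle range. The difference was -0.63 (adjusted p = 0.796). The highest vehicle value was in NSG_Non-Treatment_308, which also had the lowest Il1r2 of its group. Il1r2 was at 1103, 6398, 6785, 6984 and 7631 in vehicle tumours, 1605, 1652, 3094, 4279 and 5245 in entinostat and 2089.9, 2542, 3151, 3155 and 3987 in baseline tumours, and 4 of the 5 vehicle tumours lay above all other NSG tumours.

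Il33 fell in NSG vehicle against baseline tumours, where 13.0% of genes were called, 5.50% lower and 7.53% higher, and no other member was called. All members overlapped between these groups, and 12.1% of genes did not. Baseline tumours held 4688, 7467, 8423, 8997 and 9426 normalized counts, vehicle tumours 1749, 4027, 4092, 4829 and 6075 and entinostat tumours 2680.1, 2751, 3873, 4547 and 5541. The lowest baseline tumour, at 4688, reached into the vehicle range and the other 4 baseline tumours lay above it. The log2 difference of vehicle from baseline was -0.98 (SE 0.30, adjusted p = 0.0449). It no longer passed with no filter (adjusted p = 0.0627), without the trend and robust steps (adjusted p = 0.0602), or without any 1 of 6 libraries (NSG_Baseline_303, NSG_Baseline_304, NSG_Baseline_305, NSG_Baseline_316, NSG_Non-Treatment_323 and NSG_Non-Treatment_326), in a range of adjusted p = 0.0291 to 0.107. Entinostat tumours were also lower than baseline, at -1.02 (adjusted p = 0.0897), which did not pass in a comparison where 0.406% of genes were called (0.208% higher and 0.197% lower) and 8.16% did not overlap. With only those 2 groups in the fit it passed (adjusted p = 0.0447, in a range of adjusted p = 0.0447 to 0.196). Baseline tumours are shared by both comparisons.

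No other member passed between NSG vehicle and baseline tumours, though Il1r1 and Il1r2 did with 1 library left out. Il1r1 was at -0.54 (adjusted p = 0.0918) and Il1rl1 at -0.93 (adjusted p = 0.142). Without NSG_Baseline_304 Il1r1 passed (adjusted p = 0.0484, range of adjusted p = 0.0484 to 0.205). Il1r2 was at 0.72 (adjusted p = 0.30), and 1.25 (adjusted p = 0.0212, range of adjusted p = 0.0212 to 0.496) without NSG_Non-Treatment_308. In this comparison 5 of 10 neutrophil markers rose and 4 of 10 fibroblast, 4 of 12 macrophage and 2 of 9 mast cell markers fell, as did 6 of 7 dendritic cell markers and 5 of 8 endothelial markers. The summed fibroblast level was 104794 to 248612 in baseline and 41353 to 87909 in vehicle tumours, and the summed neutrophil level 61149 to 99718 and 74323 to 165608. The summed dendritic cell level was 3243 to 4644 and 561 to 2412, and the summed endothelial level 3925 to 5146 and 2354 to 4036. These markers moved in the same tumours as the fall of Il33, and their part in the member values was not tested.

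**Figure D3:**
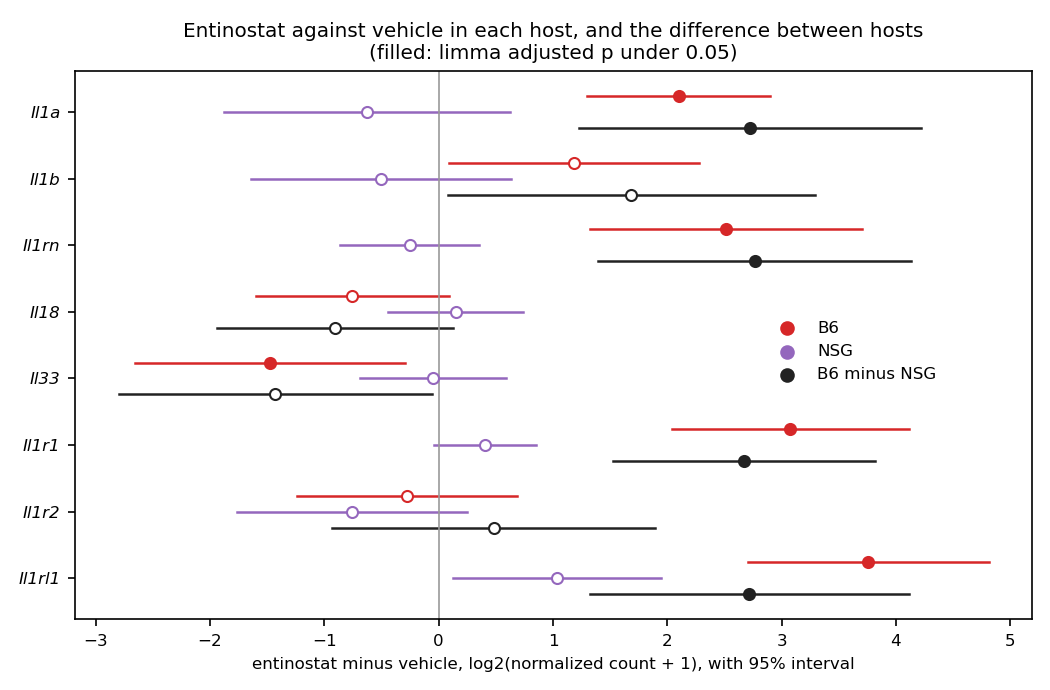
Difference of entinostat from vehicle tumours in log2(normalized count + 1) for the 8 members, with 95% intervals, in B6 tumours, in NSG tumours and as B6 minus NSG; filled points passed limma's adjusted p of 0.05. Il1a, Il1rn, Il1r1 and Il1rl1 are filled in B6 and in the difference between hosts, Il33 is filled in B6 alone, and no NSG point is filled.

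The entinostat response itself was compared between hosts, as the B6 difference minus the NSG difference in 1 fit. Of 8 members 4 responded more in B6 hosts, where 43.5% of 16335 genes differed between hosts, 23.8% with a higher and 19.7% with a lower B6 response. Dose and tumour volumes are not given for NSG mice, so host cannot be told apart here from a difference in either. The difference of responses was 2.76 (SE 0.67, adjusted p = 0.00156) for Il1rn, 2.72 (SE 0.73, adjusted p = 0.00373) for Il1a, 2.72 (SE 0.68, adjusted p = 0.00216) for Il1rl1 and 2.67 (SE 0.56, adjusted p = 0.000407) for Il1r1. These are the 4 that rose in B6 tumours. Il1b, at 1.69 (adjusted p = 0.0820), and Il33, at -1.43 (adjusted p = 0.0840), did not pass. Il33 passed without B6 vehicle 424 (adjusted p = 0.00915, range of adjusted p = 0.00915 to 0.172), and Il1b without NSG_Non-Treatment_308 or NSG_Non-Treatment_326 (adjusted p = 0.0324 and 0.0435, range of adjusted p = 0.0324 to 0.169). For vehicle against baseline, limma called 0 members and 0 genes as different between hosts (2721 genes at an unadjusted p under 0.05). All 10 epithelial, 12 macrophage and 10 fibroblast markers also responded differently between hosts, and 0 of 8 mast cell markers did.

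The order of the groups can be read within a host for each member. In B6 tumours entinostat was highest by mean for Il1a, Il1b, Il1rn, Il1r1 and Il1rl1 and lowest for Il18, Il33 and Il1r2, and the difference between baseline and vehicle passed the test for no member. In NSG tumours baseline was highest for Il1b, Il1rn, Il33 and Il1r1, vehicle for Il1a and Il1r2, and entinostat for Il18 and Il1rl1. Between groups next to each other in the NSG order, the 95% interval of the difference left out 0 only for baseline and vehicle, for Il33 and Il1rl1, and of these only Il33 passed after adjustment.

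The neighbours of the receptor genes on chromosome 1 did not move as a block. In genome order, the B6 log2 differences of entinostat from vehicle were -0.28 for Il1r2, 3.08 for Il1r1, 3.76 for Il1rl1, -1.58 for Il18r1 and 0.54 for Il18rap. Il1rl2 lies between Il1r1 and Il1rl1, and its value is not reported here. Il18r1, which codes for the chain of the IL-18 receptor that binds IL-18, fell from a mean of 579 ± 332 (SD, n = 6) under vehicle to 184 ± 135 (SD, n = 5) under entinostat (adjusted p = 0.0227). It starts at 40465552, just past the end of Il1rl1, which rose. Il18rap, the accessory chain, did not pass (adjusted p = 0.479). Against NSG hosts the response of Il18r1 differed by -1.90 (adjusted p = 0.0148).

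Of 8 other receptors and binding proteins of the family 6 were tested, and 2 rose and 2 fell in B6 entinostat against vehicle, with a median of 0.66. This is near the 56.0% of all genes called. Il1rap, the signalling partner of both Il1r1 and Il1rl1, rose by 0.77 (adjusted p = 0.00553), and Il18bp, a secreted inhibitor of IL-18, by 0.81 (adjusted p = 0.0217). Sigirr, an inhibitory receptor of the family, was at -1.28 (adjusted p = 0.00292), with means of 351 ± 188 (SD, n = 6) under vehicle and 131 ± 30.5 (SD, n = 5) under entinostat, with no overlap. The genes of the IL-36 cytokines and of their antagonist Il36rn, which epithelia make, gave 0 calls among 4 tested. Il36a, Il36b and Il36rn were listed at 0 in all 5 entinostat tumours, and in vehicle tumours they ran from 0 up to 51.8, 22.6 and 68.4. Against baseline tumours, where they ran from 4.71 to 134, 2.71 to 62.9 and 1.42 to 345, these 3 fell by limma and Il36g did not pass. Il36a, Il36b and Il36rn met the filter on low values through baseline and vehicle tumours alone. A fall under entinostat was thus the only direction open to them, and their calls are a description.

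**Figure D4:**
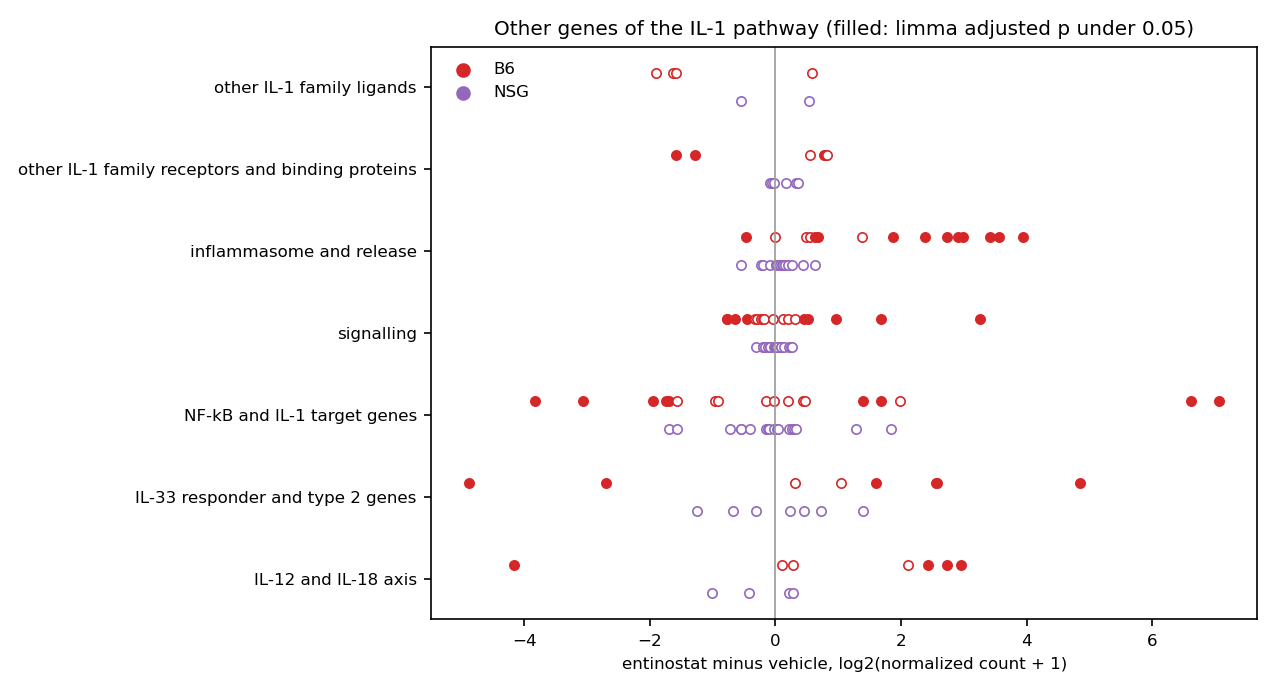
Difference of entinostat from vehicle tumours in log2(normalized count + 1) for each tested gene of 7 lists of the IL-1 pathway, in B6 and NSG tumours; filled points passed limma's adjusted p of 0.05. In B6 tumours the inflammasome and release list has 10 filled points above 0 and 1 below, the signalling and target lists have filled points on both sides, and no NSG point is filled.

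Inflammasomes are the complexes that cut the IL-1 beta and IL-18 precursors. The list of inflammasome and release genes gave more rises than falls in B6 entinostat tumours. It also holds neutrophil protease genes and other genes that are not inflammasome parts. Of 15 tested 10 rose, 1 fell and 4 did not pass, with a median of 1.87, where 29.9% of all genes rose and 26.2% fell. Among sensor genes, Aim2, a sensor of DNA, rose by 3.41 (adjusted p = 9.36e-06), Nlrc4 by 3.55 (adjusted p = 8.35e-05), Nlrp3 by 2.91 (adjusted p = 0.000775) and Mefv, the pyrin gene, by 2.99 (adjusted p = 0.000157). P2rx7, the ATP receptor that triggers Nlrp3, rose by 2.37 (adjusted p = 9.55e-06), with means of 307 ± 152 (SD, n = 6) under vehicle and 1458 ± 168 (SD, n = 5) under entinostat. Casp1, the protease itself, was the one that fell, at -0.47 (adjusted p = 0.00802), with means of 2271 ± 376 (SD, n = 6) under vehicle and 1619.9 ± 111 (SD, n = 5) under entinostat. The adaptor gene Pycard was at 1.38 (adjusted p = 0.0591) and did not pass. Nlrp1b rose by 1.87 (adjusted p = 0.00936), with the reservation that reads of its near copy Nlrp1a can be split between them. Between hosts 8 of 15 had a higher B6 response and none a lower one, beside 23.8% and 19.7% of all genes. In the same B6 tumours all 12 macrophage markers rose, and their part in these values was not tested.

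Of 18 signalling genes downstream, 5 rose, 4 fell and 9 did not pass, with a median of -0.11. These counts are near the shares over all genes, 29.9% higher and 26.2% lower. Irak3, an inhibitory member of the IRAK kinases, rose most, by 3.26 (adjusted p = 5.96e-05), followed by Irak2 at 1.69 (adjusted p = 0.000288) and the NF-kB kinase gene Ikbkb at 0.97 (adjusted p = 1.73e-05). Chuk, the partner kinase of Ikbkb, was at -0.64 (adjusted p = 0.00576) and fell. The shared adaptor gene Myd88 was at 0.12 (adjusted p = 0.463), with means of 1709 ± 294 (SD, n = 6) under vehicle and 1845 ± 216 (SD, n = 5) under entinostat, and did not pass.

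Of 18 known targets of NF-kB and IL-1, 4 rose, 5 fell and 9 did not pass, with a median of -0.09, again near the shares over all genes. Saa3, an acute phase protein gene, rose from 1106 ± 1631 (SD, n = 6) to 45791 ± 42854 (SD, n = 5), a log2 difference of 7.07 (adjusted p = 0.000442). Mmp3, a matrix protease gene of fibroblasts, rose by 6.61 (adjusted p = 0.000264). The neutrophil chemokine gene Cxcl3 fell, at -3.83 (adjusted p = 0.000158), as did Ptgs2, the cyclooxygenase-2 gene, at -3.07 (adjusted p = 5.42e-05).

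Genes of type 2 immunity, the responses that IL-33 starts, gave 4 that rose and 2 that fell of 8 tested, with a median of 1.32, beside 29.9% and 26.2% of all genes. Retnla, a marker of alternatively activated macrophages, rose by 4.85 (adjusted p = 0.00559), and Il4 by 1.61 (adjusted p = 0.00516) at low levels, 2.48 to 7.04 under vehicle and 7.37 to 35.6 under entinostat. No vehicle tumour reached the filter value of 10 for Il4. Il4, counted among the 4 that rose, thus met the filter through the other groups only. Areg, a growth factor that ST2-bearing lymphocytes and epithelium make, was at -4.88 (adjusted p = 2.62e-05) and fell, as did Gata3, a regulator of type 2 lymphocytes that urothelium also expresses, at -2.70 (adjusted p = 5.01e-05). On the IL-12 and IL-18 axis 3 of 7 rose and 1 fell, beside the same shares of all genes, in tumours where 7 of 8 T cell markers rose. Stat4 rose by 2.95 (adjusted p = 8.35e-05), Tbx21, the T-bet gene, by 2.43 (adjusted p = 3.21e-05) and Il12b by 2.74 (adjusted p = 0.00608). Il23a was at -4.17 (adjusted p = 3.26e-06) and fell, with means of 28.4 ± 10.4 (SD, n = 6) under vehicle and 0.805 ± 1.14 (SD, n = 5) under entinostat. With that mean, no entinostat tumour reached the filter value of 10 for Il23a, which met the filter through baseline and vehicle tumours alone. A fall was thus the only direction open to Il23a, and its call is a description. None of the tested genes of the 7 lists was called in NSG entinostat against vehicle tumours.

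The genes with the pattern most like a member were read across the 15 libraries of each host, by the lower of the B6 and NSG Pearson correlations of log2(normalized count + 1). The libraries of a host share its groups, so differences between groups raise these values, and they are a description. Il1b ran with Trem1, a receptor of neutrophils and monocytes (r = 0.88 in B6 and 0.88 in NSG), with Gpr84 and with Nlrp12. With group means removed the values for Trem1 were 0.86 and 0.87. Il1rn ran with Clec7a, the dectin-1 gene (0.87 and 0.90, and 0.66 and 0.87 with group means removed), Itgax and Plek. With group means removed the B6 values were 0.51 for Itgax and 0.39 for Plek, from 0.83 and 0.80.

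Il1rl1 ran with Pros1 (0.91 and 0.87), Crabp1 and Sgce (0.95 and 0.86). Il1r1 ran with Ptpn7 (0.85 and 0.85), Cd300lb and Ddr2, the collagen receptor gene. In B6 tumours, removing group means left 0.22 for Ptpn7, 0.56 for Cd300lb (from 0.91) and 0.37 for Ddr2 (from 0.84). Il1a ran with Kif1a (0.86 and 0.81), Rab6b and Ggta1, and the B6 value for Kif1a was 0.34 with group means removed. Il33 ran with Adam28 (0.82 and 0.81), Nfkb1 and Slc34a2. Il18 ran with Ube2e3 (0.75 and 0.72) and Sertad3, and Il1r2 with Gtf2h4 (0.77 and 0.71), Cdk5 and Yeats4.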

How the data were processed

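Bulk RNA-seq of 15 B6 and 15 NSG tumours was analysed, with group labels taken from the sample labels. The deposited values are a signal per gene, tables of normalized counts by the authors. STAR, DESeq2 and the build mm10 are named in the submitters' processing notes, without role or version. Libraries were made with a stranded mRNA kit, per the labels' protocols, and each host has its own table. Whole reads could not be recovered (35.0 to 79.1% of low values lay within 0.05 read of a whole multiple), so no count test was run. Summed signal per library was 21.2 to 37.2 M, and interval and p-value precision rests on the number of tumours. Of 47606 Ensembl IDs, 47187 matched a symbol.

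The 3 groups of a host entered 1 limma fit (version 3.58.1, under R 4.3.3) of log2(value + 1), using trended and robust empirical Bayes. Genes needed 10 or more in no fewer than 4 B6 or 5 NSG libraries. P-values were adjusted by Benjamini-Hochberg over 17053 (B6), 17752 (NSG) or 16335 (both) genes, and an adjusted p under 0.05 was called. The fit was also run on simulated data in which few genes changed, unlike the B6 entinostat comparisons, so no support is drawn from that run. Other steps used pandas 2.3.3, numpy 2.4.6, scipy 1.17.1 and matplotlib 3.10.9 under Python 3.11.15.

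The members and the gene and marker lists were chosen with earlier results of these data known. All 8 members are named, from each pathway list the called genes with the 2 to 4 smallest p, always Il1rap, Il18r1, Il18rap, Il18bp, Casp1, Nlrp3, Pycard, Myd88 and Nlrp1b, and for each member the 3 genes most like it, passing over predicted genes and pseudogenes (1 of the genes most like Il18 is not reported here). Other genes were named after their values were seen: Krt5, Upk2, Ltf, the IL-36 genes and Nlrp1a. Alternatives were pseudocounts of 0.1 and 5, no filter and a filter of 50, quantile and cyclic loess scaling, no trend and robust steps, only the 2 groups compared, exact permutation and leaving out each library. Counting vehicle 408 and 414 as 1 sample, and leaving out 402 as well, were added after seeing the data. T cell receptor and exome data were not used here.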

Additional observations from a re-analysis of the deposited data

Results flagged for a closer look

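Single libraries far from the rest of their group were sought in 48 sets of values (8 members in 6 groups of 4 to 6 tumours), and 7 were found. The search used normalized counts without a log. Its chance rate of about 1 in 20 holds for normally distributed values, which was not checked. The 7 are therefore a description and no excess over chance is claimed. In B6 vehicle tumours these were Il1r1 in tumour 402 (2234 normalized counts, the others 191 to 655), Il1r2 in tumour 424 (3117, the others 415 to 1083) and Il18 in tumour 410 (1267, the others 263 to 417). In B6 entinostat tumours both were in tumour 421, with Il18 at 357 (the others 206 to 246) and Il1r1 at 2666 (the others 4282 to 4513). In NSG tumours they were Il1b in NSG_Entinostat_312 (3185, the others 6645 to 7287) and Il1r2 in NSG_Non-Treatment_308 (1103, the others 6398 to 7631).

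The entinostat response differed between B6 and NSG hosts by limma's test of the difference for 4 members, at log2 differences (B6 minus NSG) of 2.72 for Il1a, 2.76 for Il1rn, 2.67 for Il1r1 and 2.72 for Il1rl1. Of the other pathway genes named, those with a higher B6 response were Saa3 (6.77), Mmp3 (4.76), Nlrc4 (3.54), Irak3 (3.24), Mefv (2.91), Nlrp3 (2.81), Aim2 (2.77), Stat4 (2.67), P2rx7 (2.35), Irak2 (1.77), Ikbkb (0.96) and Il1rap (0.82). Those with a lower B6 response were Il23a (-4.38), Cxcl3 (-3.68), Areg (-3.63), Gata3 (-3.15), Ptgs2 (-2.51), Il18r1 (-1.90), Sigirr (-1.19) and Chuk (-0.85). Il23a met the B6 filter on low values through baseline and vehicle tumours alone, so its value is a description.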

How the results depend on the processing

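The rises of Il1a, Il1rn, Il1r1 and Il1rl1 in B6 entinostat against vehicle tumours, and their differences between hosts, kept direction and call under every limma alternative run (21 and 29 per gene). The number of members called in B6 entinostat against vehicle tumours was 4 to 6. In NSG vehicle against baseline tumours it was 1, and 0 with no filter or with no trend and no robust step, and 0 to 2 with 1 library left out. In NSG entinostat against baseline tumours it was 0, and 1 with only the 2 groups compared. Quantile scaling moved the median of all genes in B6 entinostat against vehicle from -0.01 to -0.16 and gave Il33 at -1.68 and Il1rl1 at 3.54. No paired analysis was possible because tumour numbers differ between the groups compared, so no replicate block could be fitted.

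Signs turned 38 times, none of them of a called value, 35 with 1 library left out. Under other settings these were Il1r2 in B6 vehicle against baseline without vehicle 402 and with 408 and 414 as 1 sample (0.021), and Il1rl1 in the host difference of vehicle against baseline with quantile (-0.016) and cyclic loess scaling (-0.021). With 1 library left out the ranges were -0.45 to 0.13 for Il1r2 in B6 entinostat against vehicle. In NSG entinostat against vehicle they were -0.33 to 0.12 for Il33 and -0.012 to 0.37 for Il18, and in NSG entinostat against baseline -0.26 to 0.17 for Il1r2 and -0.18 to 0.38 for Il1rl1. In NSG vehicle against baseline they were -0.41 to 0.65 for Il1a and -0.55 to 0.16 for Il1b. In the host difference of vehicle against baseline they were -1.03 to 0.030 for Il1a, -0.79 to 0.062 for Il1b, -0.31 to 0.16 for Il1rn, -0.18 to 0.43 for Il18, -0.23 to 0.48 for Il1r1 and -0.28 to 0.42 for Il1rl1. The cause was not tested.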

Other observations

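The balance of antagonist to agonist transcripts can be followed within libraries, as log2 ratios compared between the groups of a host only. Il1rn over Il1b ran from -0.31 to 2.46 in B6 baseline, -0.98 to 2.43 in B6 vehicle and -0.92 to 3.69 in B6 entinostat tumours, so the groups overlapped. In NSG tumours it ran from -2.21 to -0.12 in baseline, -2.08 to -0.41 in vehicle and -1.40 to -0.68 in entinostat tumours. Il1rn over Il1a ran from 3.29 to 4.72 in B6 vehicle and 1.71 to 5.16 in B6 entinostat tumours, where both genes rose. These ratios were not tested.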
